A study of Mus musculus with 2 samples.

Results

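The genes described here are the vasopressin receptors and the machinery that makes, breaks down and reads cyclic AMP (cAMP) in renal collecting duct cells of mice with and without a conditional deletion of Gata2, a zinc-finger transcription factor. They were chosen by name alone: every probe that is not a control and whose gene name is that of an adenylyl cyclase (Adcy and a number), a phosphodiesterase (Pde and a number), a catalytic or regulatory subunit of protein kinase A (Prkac, Prkar), an A-kinase anchoring protein (Akap and a number), an Epac (Rapgef3, Rapgef4), or Avpr1a, Avpr2, Gnas, Creb1, Crem or Atf1. The names took 65 genes with 142 probes, out of 19013 named genes and 41173 probes on the array. Of the 65 genes, 51 had a probe well above background on both arrays and 1, Akap4, on the CKO array alone, so 52 were measured.

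The series holds 1 one-colour array of Gata2 CKO cells and 1 of WT cells, with no replicate, so no difference given here has a test. The CKO label reads Gata2flox/-::Pax8-rtTA::Tet-Cre: 1 allele is floxed and 1 is null, the Pax8 promoter drives the doxycycline-dependent activator in renal tubules, and cells outside the tubules therefore also lack 1 allele. The WT label gives no transgene, and both labels carry the same text on treatment, with doxycycline started at 4 weeks of age and kept up for 4 weeks, and cells taken at 8 weeks from mice of both sexes. Cells were purified with DBA lectin, which binds collecting duct cells, and 50 ng of total RNA was labelled with Cy3. For each genotype 3 mice are stated in the series design and the arrays are named as mixtures, while no label says outright that RNA was pooled. In such bulk samples, fewer cells of a type and less RNA per cell cannot be told apart.

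In principal cells of the collecting duct, vasopressin binds the V2 receptor (Avpr2), which acts through the stimulatory G protein (Gnas) on adenylyl cyclases to raise cAMP. cAMP releases the catalytic subunits of protein kinase A (PKA), which anchoring proteins (AKAPs) hold near their targets, and phosphorylation of the water channel aquaporin-2 places it in the apical membrane. Phosphodiesterases end the signal by hydrolysing cAMP, and PKA also phosphorylates the CREB family of transcription factors, through which the cyclic nucleotide acts on genes such as Aqp2.

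Each value is a level, the processed signal of a probe divided by the 75th percentile of its array. Each difference is a log2 value, CKO minus WT, with the scanner software's own error of the spots after the ± sign, which leaves out all spread between mice and between labelling reactions. For bright probes this error was near 0.20 whatever the gene, below the SD of 0.27 between different probes of a gene. Passing the spot error thus gives the size of a difference and is no test. A probe not well above background on 1 array gives only a bound, written as "at least". The lowest level well above background was 0.0462 on the CKO array and 0.0383 on the WT array. Probes bind with different strength, so the level of one gene says nothing of its rank against another. The scaling itself matters: if the 8 spike-in control transcripts are set equal in place of the 75th percentile, every difference falls by 0.54, the median of all measured genes is -0.52 in place of 0.03, and 17 of the 52 measured genes turn from higher to lower in CKO.

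Gata2 itself was lower in CKO cells, with differences of -0.37 ± 0.20 and -0.32 ± 0.20 at its 2 probes, 77.3% and 80.4% of the WT level, and neither probe is known here to lie in the deleted stretch. Principal cell markers were present (Aqp2, Aqp3, Scnn1b, Scnn1g, Hsd11b2 and Fxyd4), with a summed level of 779.1 in CKO and 920.0 in WT cells, and 6 of 6 were lower in CKO, with differences of -0.61 to -0.09, 4 of them past their spot errors. Intercalated cell markers summed to 197.8 in CKO and 109.7 in WT cells, with 6 of 6 higher in CKO, of which Atp6v0d2 turns lower with spike-in scaling. Markers of macrophages summed to 48.2 in CKO and 98.1 in WT cells, with 8 of 8 lower, and 5 of 5 podocyte markers were lower. Those of endothelium summed to 0.894 in CKO and 1.28 in WT cells. All 6 endothelial markers measured on both arrays were lower in CKO, 3 of them by more than their spot error. Fibroblast and smooth muscle markers summed to 23.8 in CKO and 29.6 in WT cells, with 6 of 7 measured lower, 5 by more than their spot error. Acta2 makes up most of that sum, and without it the sums were 7.49 in CKO and 13.8 in WT cells. Pecam1 and Cdh5, which define endothelium, passed the background in WT cells alone. Their bounds were -0.22 ± 0.63 and -0.76 ± 0.66, that of Pecam1 smaller than its error. Des and Pdgfra passed it in neither. Proximal tubule markers summed to 6.14 in CKO and 7.62 in WT cells with 4 of 6 lower, and those of the thick ascending limb to 53.4 in CKO and 45.4 in WT cells with 3 of 4 higher, or 2 with spike-in scaling. Both orders rest on the brightest marker. Without Lrp2 the proximal tubule sums were 5.15 in CKO and 4.67 in WT cells. Without Umod those of the thick ascending limb were 18.2 in CKO and 18.6 in WT cells. The part of these cell types in the differences given here was not tested.

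The probes that carry the largest differences, and those of Pde4b, whose probes differ along the gene, are shown first, each by the first 30 of its 60 bases as the scanner files give them, with mm9 positions. Exon and UTR limits were not used here. In Pde4b, which encodes a cAMP-specific phosphodiesterase with several promoters, they run in the direction of transcription from the most upstream probe, at chr4:101927825-101927884, to the most downstream, at chr4:102278153-102278211, both on the plus strand.
Pde4b, first probe: catgacagcaaaaaattctccaaaagaatt
Pde4b, at 1.63 kb: tggtgtaactgaatacaggaagataagcac
Pde4b, at 316 kb: tgccacagtttaatccgttcagtagacacg
Pde4b, at 350.1 kb: ctggaagagactgacatagacattgcaaca
Pde4b, at 350.3 kb: gcagctgtatgtggtagtagaggccagttc
The next 5 belong to the genes at least 2-fold apart and to the V2 receptor: Akap12 at chr10:5987207-5987266 (minus strand), Pde10a at chr17:9174995-9175054 (plus strand), Adcy4 at chr14:56388004-56388063 (minus strand), Pde4d at chr13:110530748-110547805 (plus strand, a placement with a gap) and Avpr2 at chrX:71139568-71139627 (plus strand).
Akap12: gtactcttctaggctggaccgaattcatat
Pde10a: gagaaatccaaactgttgattacaggtgca
Adcy4: gcatcaaggtcaaaggcaaaggggaactct
Pde4d: aaagtctatgtccaggaactcctcgattgc
Avpr2: tgtctccctaataaaagttgcagttcattt

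Over the 52 measured genes the median difference was -0.01, with 25 higher and 27 lower in CKO, that is 48.1% higher and 51.9% lower, where among all 13797 measured genes 54.7% were higher and 45.3% lower. A single gene, Pde4d, was at least 2-fold higher (1.92% of the measured members, against 1.23% of all genes). At least 2-fold lower were 3, Akap12, Pde10a and Adcy4 (5.77%, against 3.36% of all genes). Past 2-fold in either direction were 4 members of 52, where the whole array had 4.6%. These shares are near those of the whole array, and the split is 18 higher and 34 lower with cyclic loess and 8 higher and 44 lower with spike-in scaling. With the 75th percentile scaling the spread differed by class, as the plot of differences by class shows. Among cAMP phosphodiesterases 11 of 13 differed by more than their spot error, against 5 of 13 anchors and 38.7% of all genes. With spike-in scaling that order turned, with 8 of 13 cAMP phosphodiesterases and 11 of 13 anchors past their spot errors. That scaling moves every difference by -0.54, more than most spot errors, so genes near 0 pass by the shift alone. The share of all genes past their spot errors was not counted with it, so these counts say nothing particular of either class.

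**Figure D1:**
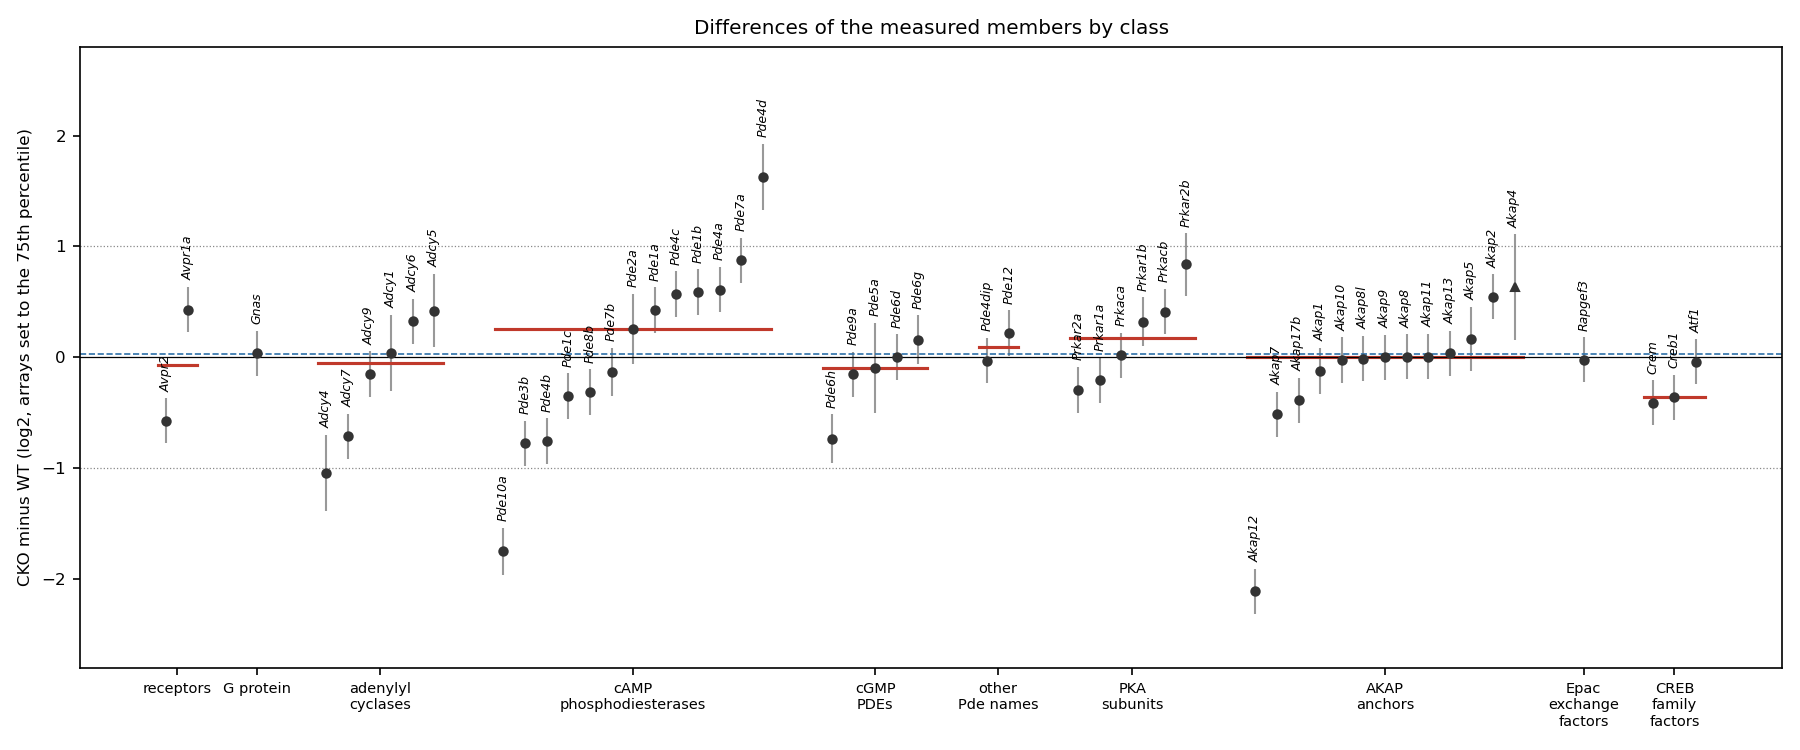
CKO minus WT difference (log2, arrays set to their 75th percentile) of each measured gene, 1 point a gene, grouped by class. Bars are spot errors, the triangle is a lower bound (Akap4), red lines are class medians, the dashed line is the median of all genes (0.03), and dotted lines mark 2-fold. Most anchors lie on 0 while Akap12 lies at -2.11, and the cAMP phosphodiesterases spread from -1.75 to 1.63. With spike-in scaling all points would sit 0.54 lower.

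The V2 receptor, the vasopressin receptor that drives water reabsorption, had a level of 16.5 in CKO and 24.6 in WT cells. Avpr2 was thus at 67.2% of the WT level, a difference of -0.57 ± 0.20 from 1 probe, and -1.12 with spike-in scaling. The V1a receptor acts through phospholipase C and calcium, and in the collecting duct it is known mainly from intercalated cells. Avpr1a had a level of 3.57 in CKO and 2.65 in WT cells, a difference of 0.43 ± 0.20 that turns to -0.11 with spike-in scaling. The receptors thus lay on opposite sides of 0 when set to the 75th percentile. Avpr2 was lower beside 6 of 6 principal cell markers that were lower, 4 of them past their spot errors. Avpr1a was higher beside 6 of 6 intercalated cell markers that were higher. The part of these cell types in either receptor value was not tested.

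Gnas encodes the alpha subunit of the stimulatory G protein, from a locus that also gives other transcripts. At its brightest probe the level was 6.37 in CKO and 6.22 in WT cells, and at another it was 3.64 in CKO and 3.74 in WT cells. These 2 probes differed by 0.03 ± 0.20 and -0.04 ± 0.20, within their errors, and the first is below 0 with normexp, cyclic loess and spike-in scaling. One more Gnas probe, designed on another transcript record of the locus, had a level of 0.480 in CKO and 0.258 in WT cells, a difference of 0.90 ± 0.21. The other 4 Gnas probes were not well above background on either array.

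Of 10 adenylyl cyclases, the enzymes that make cAMP, 6 were measured, with 3 higher and 3 lower in CKO and a median of -0.05 (-0.60 with spike-in scaling). Adcy6, the calcium-inhibited isoform that carries most of the vasopressin-stimulated cAMP synthesis of mouse principal cells, had a level of 11.8 in CKO and 9.41 in WT cells. Its difference was 0.32 ± 0.20, and -0.22 with spike-in scaling. Adcy9, an isoform insensitive to forskolin, was at 1.14 in CKO and 1.26 in WT cells, a difference of -0.15 ± 0.20. No other Adcy6 probe was on the array.

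Adcy7, an isoform abundant in blood cells, was lower in CKO at both of its probes. The brighter read 0.793 in CKO and 1.30 in WT cells, a difference of -0.71 ± 0.21, and the dimmer 0.0529 in CKO and 0.0916 in WT cells, a difference of -0.79 ± 0.35. Adcy4, an isoform known from endothelium among other cells, read 0.0581 in CKO and 0.120 in WT cells, a difference of -1.04 ± 0.34. The CKO value lay close above the lowest level called well above background on that array, 0.0462, where the lowest on the WT array was 0.0383. With the normexp background correction the Adcy4 difference was -0.23. All 8 macrophage markers were lower in CKO by more than their spot errors, as were 3 of the 6 endothelial markers measured on both arrays, and their part in the values of Adcy7 and Adcy4 was not tested.

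Adcy5, the closest relative of Adcy6, read 0.0867 in CKO and 0.0647 in WT cells, a difference of 0.42 ± 0.33 that is -0.12 with spike-in scaling. Its other probe was well above background in CKO cells alone, at least 1.26 higher on the log2 scale. Adcy1, a calmodulin-stimulated isoform, read 0.0736 in CKO and 0.0715 in WT cells, a difference of 0.04 ± 0.34 (-0.50 with spike-in scaling, and below 0 with quantile normalization and cyclic loess). Adcy2, Adcy3, Adcy8 and Adcy10, the last a soluble bicarbonate-sensing cyclase, had no probe well above background on either array, which at this signal does not show that they are absent.

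**Figure D2:**
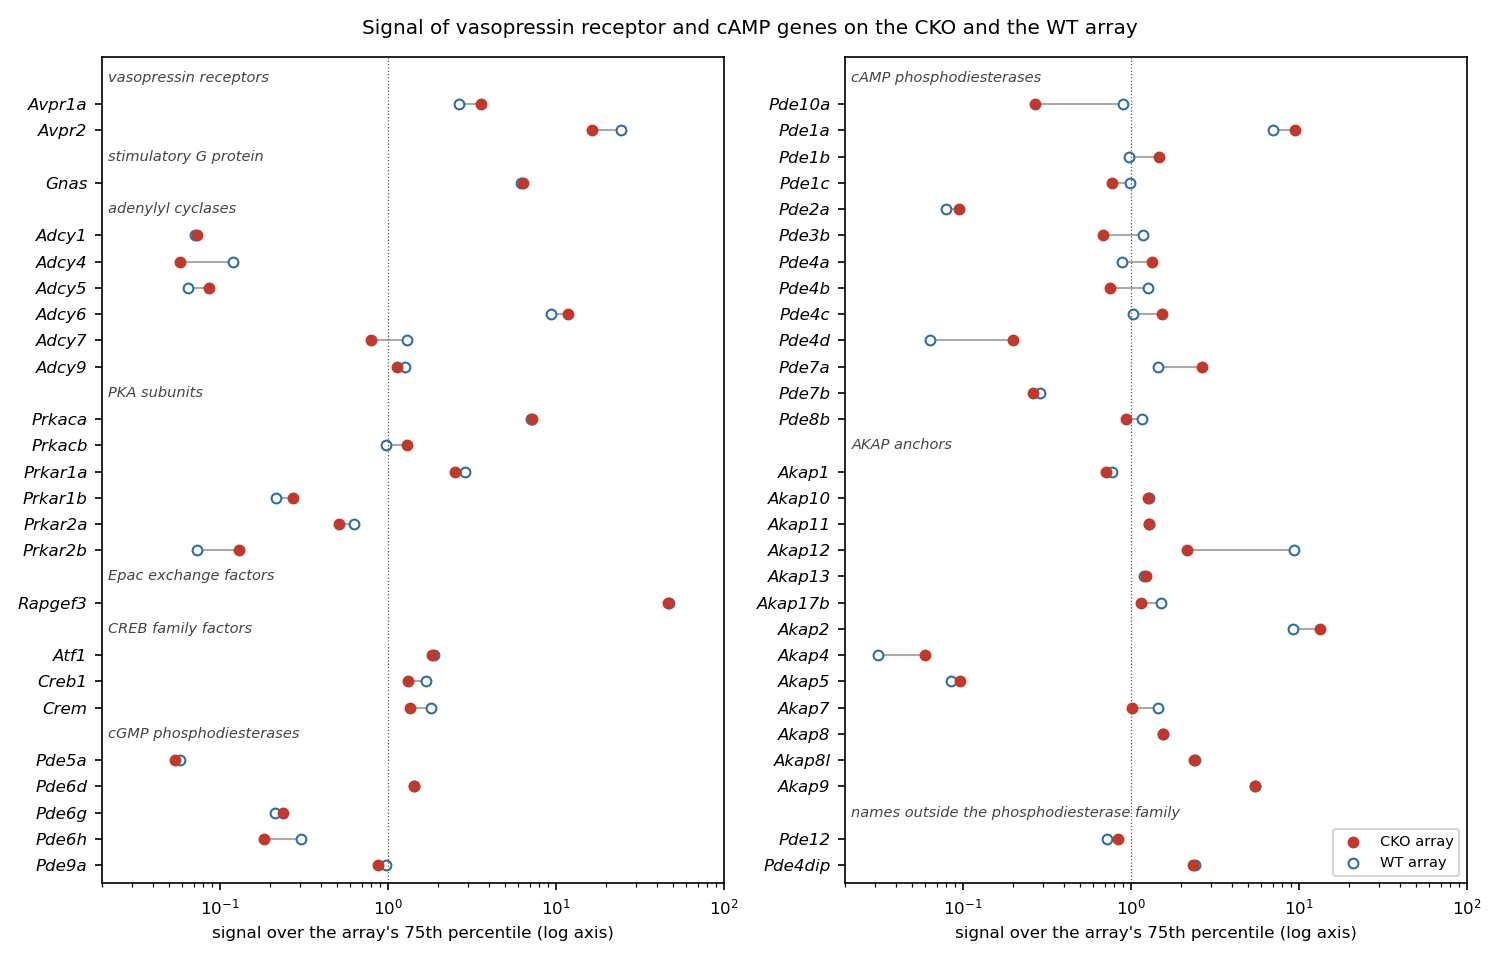
Level of the probe used for each measured gene, the signal over the 75th percentile of its array (log axis), on the CKO array (filled) and the WT array (open), grouped by class. The vertical dotted line is the 75th percentile, at 1. The pairs of Akap12, Pde10a, Pde4d and Adcy4 are the widest apart. Levels of different genes come from different probes and do not rank the genes.

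Of 15 phosphodiesterases of the families that hydrolyse cAMP, 13 were measured, with 7 higher and 6 lower in CKO and a median of 0.26 (-0.28 with spike-in scaling). No direction was shared by the class. Within it, Pde1a, Pde1b, Pde2a, Pde4a, Pde4c, Pde4d and Pde7a were higher, and Pde10a, Pde3b, Pde4b, Pde1c, Pde8b and Pde7b lower, with Pde1a and Pde2a turning lower under spike-in scaling and Pde7b higher with normexp or the mean of its probes. Under spike-in scaling Pde1b, Pde4a and Pde4c were within their spot errors.

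Pde10a, which hydrolyses both cAMP and cGMP and is best known from the striatum, had the second largest difference among the 65 genes. Its level was 0.269 in CKO and 0.906 in WT cells, a difference of -1.75 ± 0.21, and -1.15 with normexp. The other Pde10a probe, 4.38 kb downstream by its mm9 position, was not well above background on either array. Pde3b, a cGMP-inhibited cAMP phosphodiesterase, read 0.688 in CKO and 1.18 in WT cells, a difference of -0.78 ± 0.21. Pde3a, its relative, had none of its 3 probes well above background on either array.

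The Pde4 family is specific for cAMP and holds the main phosphodiesterases of vasopressin-regulated cAMP in the collecting duct. Its 4 members differed in direction. Pde4a read 1.35 in CKO and 0.884 in WT cells, a difference of 0.61 ± 0.20. Pde4c, which in collecting duct cells has been placed in primary cilia, read 1.54 in CKO and 1.04 in WT cells, a difference of 0.57 ± 0.20. With spike-in scaling Pde4a and Pde4c were at 0.07 and 0.03, within their spot errors, so their direction depends on the scaling.

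Pde4d, whose long and short isoforms start at several promoters, had the largest positive difference of the 65 genes. The probe used, the most upstream of 4, read 0.199 in CKO and 0.0644 in WT cells, a difference of 1.63 ± 0.30. The probe at 213 kb was well above background in CKO cells alone, at least 1.47 higher on the log2 scale. The most downstream probe, at 214 kb, read 0.0642 in CKO and 0.0487 in WT cells, a difference of 0.40 ± 0.37 that turns to -0.14 with spike-in scaling. The remaining one was above background on neither array. All 4 were dim, and normexp, which shrinks dim differences, gave 0.79 for the probe used, below 2-fold.

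Pde4b divided along its length. The most upstream probe was above background in CKO cells alone, with a difference of at least 0.50 ± 0.78. That bound is smaller than its error and does not settle the direction. The next probe, 1.63 kb further on, read 0.1001 in CKO and 0.0462 in WT cells, a difference of 1.11 ± 0.35. The 3 downstream probes were lower in CKO. At 316 kb the level was 0.409 in CKO and 0.607 in WT cells, a difference of -0.57 ± 0.21. At 350.1 kb it was 0.214 in CKO and 0.373 in WT cells, a difference of -0.80 ± 0.22. At 350.3 kb, the probe used, it was 0.754 in CKO and 1.27 in WT cells, a difference of -0.75 ± 0.21. Of 5564 genes with 2 or more probes measured, 3.45% had probes over 2-fold apart from each other, and among the 25 such members 2 did, Pde4b and Pde4d. The signs of the 1.63 kb probe and the 3 downstream probes of Pde4b stayed opposite under normexp, quantile normalization and cyclic loess, alternatives applied to single probes after their values were seen, with 0.47 at the 1.63 kb probe and -0.61 at the probe used under normexp. With spike-in scaling these were 0.57 and -1.30, and the first probe no longer had a bound above 0. Both upstream probes were dim. Macrophages, whose 8 markers were all lower in CKO, also express Pde4b, and their part in the Pde4b values was not tested.

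**Figure D3:**
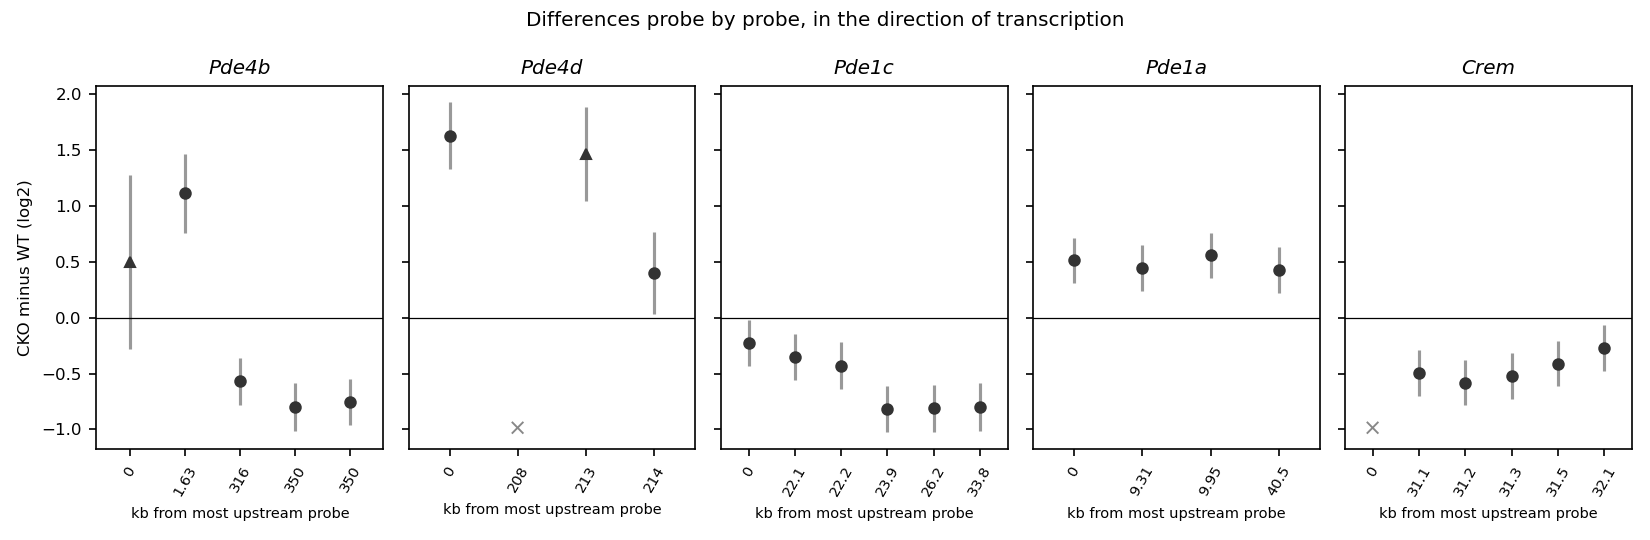
CKO minus WT difference (log2, arrays set to their 75th percentile) of each probe of 5 genes, placed by order in the direction of transcription, with the distance in kb from the most upstream probe below. Bars are spot errors, triangles are lower bounds for probes that passed the background in CKO cells alone, and crosses at the bottom mark probes above background on neither array, which have no difference. Pde4b is above 0 at its probe at 1.63 kb, with the bound of the first probe within its error of 0, and below 0 at the 3 others, whereas Pde1a and Crem keep 1 sign at all their measured probes. With spike-in scaling all points would sit 0.54 lower, which puts the Pde1a values at about 0 or below.

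The Pde1 family, stimulated by calcium and calmodulin, also split by gene. Pde1a was higher at all 4 of its probes, by 0.43 to 0.56, with a level of 9.51 in CKO and 7.07 in WT cells at the brightest; spike-in scaling takes that probe to -0.12. Pde1b read 1.47 in CKO and 0.979 in WT cells, a difference of 0.59 ± 0.20 that is 0.05, within its spot error, with spike-in scaling. Pde1c was lower at all 6 of its probes. Its brightest probe read 0.774 in CKO and 0.986 in WT cells, a difference of -0.35 ± 0.21. The 3 upstream Pde1c probes differed by -0.23 to -0.43 and the 3 downstream ones, from 23.9 kb on, by -0.80 to -0.82, apart by more than the spot errors. With normexp, applied to these probes too after their values were seen, the ranges were -0.12 to -0.27 and -0.40 to -0.58, and the gap between them was below the spot errors.

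Pde7a, a cAMP-specific enzyme of high affinity, was higher in CKO at both probes. The brighter Pde7a probe read 2.68 in CKO and 1.46 in WT cells, a difference of 0.88 ± 0.20, and the other differed by 0.55 ± 0.21. Its relative Pde7b differed by -0.13 ± 0.22 at the probe used and by 0.18 and 0.56 at 2 dimmer ones, so its direction was not settled. Pde8b, which is insensitive to the common inhibitor IBMX, read 0.934 in CKO and 1.16 in WT cells, a difference of -0.31 ± 0.20. Pde2a, stimulated by cGMP, read 0.0957 in CKO and 0.0800 in WT cells, a difference of 0.26 ± 0.32 (-0.28 with spike-in scaling). Pde11a was not measured.

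The 8 genes of the cGMP families gave 5 measured ones, 2 higher and 3 lower, with a median of -0.10. Pde6h, named for its role as a subunit of the cone photoreceptor enzyme, was the one that differed by more than its spot error. It read 0.183 in CKO and 0.304 in WT cells, a difference of -0.73 ± 0.22, and its other probe differed by -0.59 ± 0.24. Pde5a, the target of sildenafil, read 0.0544 in CKO and 0.0582 in WT cells, a difference of -0.10 ± 0.41 that is 0.28 with normexp. Pde9a differed by -0.15, Pde6d, a prenyl-binding chaperone, by 0.00, and Pde6g by 0.16, each within its spot error. Pde6d and Pde6g turn lower with spike-in scaling. The catalytic subunits Pde6a, Pde6b and Pde6c were above background on neither array. Pde12 and Pde4dip match the name pattern without being cyclic nucleotide phosphodiesterases, and differed by 0.22 (-0.33 with spike-in scaling) and -0.03.

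All 6 PKA subunits were measured, with 4 higher and 2 lower in CKO and a median of 0.17 (-0.37 with spike-in scaling). Prkaca, the main catalytic subunit, read 7.20 in CKO and 7.12 in WT cells, a difference of 0.02 ± 0.20 that is below 0 with normexp, quantile normalization, cyclic loess, median scaling and spike-in scaling. Prkacb, the other catalytic subunit, disagreed between its probes: the one used read 1.31 in CKO and 0.984 in WT cells (0.41 ± 0.20, or -0.13 with spike-in scaling), and the other 0.804 in CKO and 0.990 in WT cells (-0.30 ± 0.21). The direction of Prkacb was thus not settled.

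Prkar1a, a type I regulatory subunit, was at 2.52 in CKO and 2.90 in WT cells, a difference of -0.21 ± 0.20. Prkar1b, its relative, was at 0.272 in CKO and 0.218 in WT cells, a difference of 0.32 ± 0.22 (-0.22 with spike-in scaling). The type II subunits are those that most AKAPs bind. Prkar2a was at 0.515 in CKO and 0.631 in WT cells, a difference of -0.29 ± 0.21, with -0.10 and 0.00 at dimmer probes. Prkar2b was at 0.131 in CKO and 0.0730 in WT cells, a difference of 0.84 ± 0.28 at its only probe, 0.29 with spike-in scaling and 0.27, within its spot error, with normexp.

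Of 16 anchoring proteins 13 were measured, with 6 higher and 7 lower in CKO and a median of 0.00 (-0.54 with spike-in scaling). Akap12, also called gravin or SSeCKS, a scaffold for PKA and protein kinase C, had the largest difference of all 65 genes. Its level was 2.17 in CKO and 9.37 in WT cells, that is 23.2% of WT, a difference of -2.11 ± 0.20. The value came from 1 probe and lay between -2.65 and -2.05 over all alternatives tried. Fibroblasts, smooth muscle and endothelium express Akap12 too. Lower in CKO by more than their spot errors were 5 of 7 fibroblast and smooth muscle markers and 3 of the 6 endothelial markers measured on both arrays, and their part in the Akap12 value was not tested.

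Akap7, which as AKAP18 delta anchors PKA on aquaporin-2 vesicles, read 1.02 in CKO and 1.46 in WT cells, a difference of -0.52 ± 0.21. Akap2, an actin-associated anchor, went the other way. Its brightest probe read 13.4 in CKO and 9.19 in WT cells, a difference of 0.55 ± 0.20, with 0.83 and 0.52 at the 2 others and 0.00 at the brightest under spike-in scaling. Akap17b was lower at both probes, with -0.39 and -0.49. Akap4, a sperm flagellum anchor, was at the limit of detection, 0.0595 in CKO and 0.0314 in WT cells, and is at least 0.63 higher by its bound.

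The other 8 measured anchors lay within their spot errors at the probes used. Dimmer probes passed theirs in Akap13 (-0.26 ± 0.21), Akap1 (-0.30 ± 0.27) and Akap10 (at least 0.65 ± 0.50, above background in CKO cells alone). Akap9, the centrosomal and Golgi anchor AKAP450, read 5.47 in both CKO and WT cells, and its 3 probes differed by -0.03 to 0.10. Akap1, the mitochondrial anchor, differed by -0.12, Akap10 by -0.02, Akap8l by -0.01, Akap8 and Akap11 by 0.00, Akap13, also known as AKAP-Lbc, by 0.04, and Akap5, the membrane anchor AKAP79/150, by 0.17. Akap8, Akap11, Akap13 and Akap5 turn lower with spike-in scaling, and all of these but Akap5 with cyclic loess. Akap3, Akap6 and Akap14 were not measured.

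Epac proteins are cAMP-activated exchange factors for the small GTPase Rap. Rapgef3 (Epac1) had a level of 46.4 in CKO and 47.2 in WT cells, a difference of -0.02 ± 0.20. Rapgef4 (Epac2) was above background on neither array.

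The 3 CREB family factors were lower in CKO at the probes used, with a median of -0.36 (-0.90 with spike-in scaling). Crem, which encodes both activators and the repressor ICER, read 1.36 in CKO and 1.81 in WT cells, a difference of -0.41 ± 0.20, and its 5 measured probes all lay between -0.58 and -0.27. Creb1 read 1.32 in CKO and 1.70 in WT cells, a difference of -0.36 ± 0.20. That probe was printed 10 times, and the single spots gave -0.43 to -0.22 with an SD of 0.063, smaller than the error the scanner software states for 1 spot. Its other probes differed by -0.08 and -0.12. Atf1 read 1.84 in CKO and 1.90 in WT cells, a difference of -0.04 ± 0.20 within the spot error, and one dimmer Atf1 probe differed by 0.34.

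Repeated probes gave a measure of scatter within the arrays. Over 5286 genes with several probes measured on both arrays, the probes of a gene scattered with an SD of 0.27. Of the 25 members with 2 or more measured probes, 15 had all their probes on the same side of 0. The same share over all genes was not counted, so this number has nothing to be set against. Adcy7, Akap2, Akap17b, Pde1a, Pde1c, Pde7a and Crem were among the 15.

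**Figure D4:**
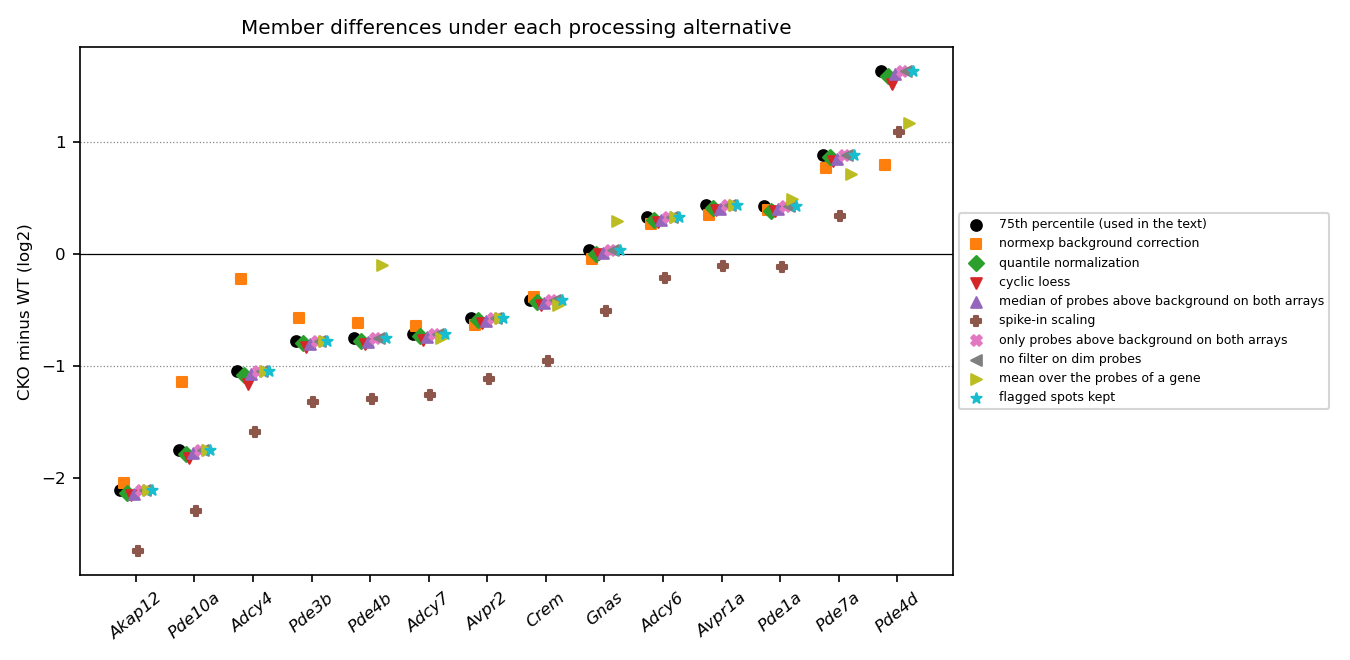
CKO minus WT difference (log2) of named genes with the 75th percentile scaling and under each alternative processing, 1 marker a setting. Akap12 and Pde10a stay below -1 in every setting, Pde4d falls under 1 with normexp, and spike-in scaling moves every gene by -0.54 and takes Avpr1a, Adcy6 and Pde1a below 0.

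Of 59 other genes of vasopressin and cAMP signalling that were listed (other receptors coupled to cAMP, inhibitory G proteins, regulators, PKA inhibitors, CREB coactivators and transport targets), 50 were measured, with 20 higher and 30 lower in CKO and a median of -0.11 (-0.65 with spike-in scaling). One was at least 2-fold higher, Gnao1, an inhibitory G protein subunit, at least 1.29 ± 0.46 higher on the log2 scale and well above background in CKO cells alone. That bound falls under 2-fold with spike-in scaling. One was at least 2-fold lower, Rgs4, which speeds the switching-off of G proteins and was above background in WT cells alone. Its bound was -1.52 ± 1.45, at least 2.87-fold lower and hardly past its error. Among receptors, Casr, the calcium-sensing receptor, differed by 0.88 and the prostaglandin E2 receptor Ptger4 by -0.75. Rgs2, a regulator of G protein signalling that vasopressin induces, differed by -0.69. Of the vasopressin targets, the water channels Aqp2 and Aqp3 differed by -0.25 and -0.43 and the sodium channel subunits Scnn1a, Scnn1b and Scnn1g by -0.28, -0.18 and -0.50. Scnn1b was within its spot error of 0.20, and the other Scnn1a probe differed by -0.01. The urea transporter Slc14a2 differed by 0.07, within its spot error of 0.20, and turns lower with spike-in scaling.

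**Figure D5:**
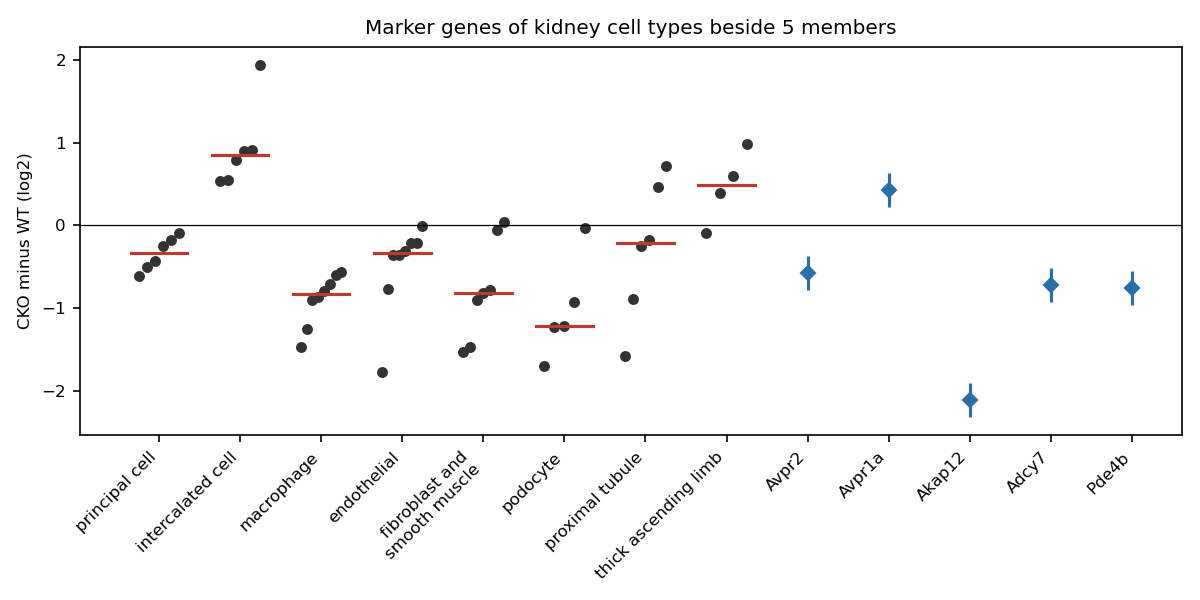
CKO minus WT difference (log2, arrays set to their 75th percentile) of each marker gene measured, grouped by the cell type it marks, 1 black point a gene with the list median in red, beside Avpr2, Avpr1a, Akap12, Adcy7 and Pde4b (blue, with spot errors). All 6 principal cell markers lie below 0 and all 6 intercalated cell markers above it, and the macrophage, endothelial and podocyte markers lie below it (Pecam1 and Cdh5 as bounds). With spike-in scaling all points would sit 0.54 lower, which takes Atp6v0d2 and Avpr1a below 0.

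GATA factors bind short sequences, so the 250 bases before each start site in RefSeq (GRCm38.p6) were searched on both strands for the letters AGATAA, with T also allowed as the first of them and G as the last. Such a match was found in 18 of 99 promoters of the members (18.2%), and in 26.5% of all 32851 promoters. Of the 53 members with a promoter in the table, 16 (Gnas, Adcy3, Adcy4, Pde1a, Pde1b, Pde2a, Pde4a, Pde4d, Pde4dip, Pde6h, Prkaca, Prkacb, Prkar1a, Akap3, Akap4 and Akap8l) had a match in at least 1 promoter, near the share among all genes, 29.8%. Among the members at least 2-fold apart, Pde4d and Adcy4 had windows with 1 match each, at 67 and 219 bases before the start. Pde4d was higher while Adcy4 was lower. The Pde4d window belongs to 1 start of a gene with several promoters. Whether the transcripts read by the Pde4d probes begin at that start was not tested, so the match is not tied to the Pde4d difference. Akap12 had no promoter in the table and was not searched. Pde10a is not among the 16 members with a match, and whether its promoter was in the table is not given here. The Avpr2 window had none of these letters. They are shown on the strand of the gene with the matched letters in capitals (TTATCT is AGATAA read on the other strand), for Pde4d at chr13:108653927-108654176, Adcy4 at chr14:55784073-55784322 and Avpr2 at chrX:73891852-73892101.
Pde4d: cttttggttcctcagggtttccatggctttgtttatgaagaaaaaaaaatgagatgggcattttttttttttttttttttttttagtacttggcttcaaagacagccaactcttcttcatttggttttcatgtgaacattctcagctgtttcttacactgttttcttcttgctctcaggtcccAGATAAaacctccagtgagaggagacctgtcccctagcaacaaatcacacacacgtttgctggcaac
Adcy4: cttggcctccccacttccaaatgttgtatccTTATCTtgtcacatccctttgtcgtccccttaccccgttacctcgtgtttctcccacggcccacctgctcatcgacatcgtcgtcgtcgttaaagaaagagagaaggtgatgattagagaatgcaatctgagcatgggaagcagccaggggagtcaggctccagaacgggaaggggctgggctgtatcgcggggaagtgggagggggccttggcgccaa
Avpr2: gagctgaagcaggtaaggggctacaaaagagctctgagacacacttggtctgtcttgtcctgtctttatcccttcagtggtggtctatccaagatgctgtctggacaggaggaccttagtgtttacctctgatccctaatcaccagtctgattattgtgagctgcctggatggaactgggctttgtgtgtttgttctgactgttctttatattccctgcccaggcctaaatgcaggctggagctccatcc
The full cAMP response element, TGACGTCA, stood in 1.55% of all promoters and among the members in that of Prkar1a alone. A match says only that the letters are there.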

How the data were processed

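The 2 deposited scanner files, 1 of CKO and 1 of WT cells, give the linear intensity of each spot. Per the file headers, Agilent Feature Extraction 10.7.3.1 measured and background-subtracted the spots, probes were placed on mm9, and the arrays shared slide 1 and scan 1. How the authors normalized between arrays was not given in the sources used here. From log2 of the processed signal of each spot, the array's 75th percentile over non-control spots was subtracted, after 73 CKO and 66 WT spots flagged as outliers were left out; 0 were saturated. Of 43379 non-control spots, 62.4% on the CKO and 64.1% on the WT array were well above background. Dim probes can be compressed or exaggerated by background subtraction, and the number of arrays limits all precision.

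Spots of a probe were averaged on the log2 scale. For each gene, the brightest probe by mean signal was used, out of those that passed the background on either array. Where it passed on 1 array only, a bound was taken against the higher of the lowest signal well above background (11.6 on the CKO and 12.0 on the WT array) and the dim probe's own. Gene names are those of the files; of the 142 member probes, 125 had an accession in a RefSeq table of GRCm38.p6, and 3 of them another symbol there (Akap2, listed there as Pakap). All measured receptors, Gnas, cyclases, PKA subunits, Epacs and CREB factors are named, and of the phosphodiesterases and anchors those at least 2-fold apart, those with the largest differences, those whose probes disagree and those known from work on water transport; the rest of these were named after their values were seen. The members, lists and alternatives were chosen with earlier results of these data known. The differences were computed on the whole array with Python 3.11.15, numpy 2.4.6 and pandas 2.3.3, with limma 3.58.1 in R 4.3.3 for normexp (offset 50), quantile normalization and cyclic loess. The step from probe values to gene differences was tested on simulated data with known changes. Scaling, spot averaging and the alternatives were not part of that test.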

Additional observations from a re-analysis of the deposited data

How the results depend on the processing

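With 1 array per genotype no value has a biological error, and signal over background limits the dim genes (Adcy4, Pde4d, Prkar2b, Adcy5) most. No paired analysis was possible because each genotype has 1 array. Akap12 and Pde10a were at least 2-fold lower under all 9 alternatives, Adcy4 under all but normexp (-0.23), and Pde4d at least 2-fold higher under all but normexp (0.79). Akap12, Pde10a and Adcy4 had 1 measured probe each. The changes of filter, the mean over probes and keeping outlier flags therefore left their values as they were and are no check on them. With normexp, 0 members were at least 2-fold higher, and over all genes 54 were higher and 171 lower. With spike-in scaling 9 members were at least 2-fold lower (Avpr2, Adcy4, Adcy7, Pde10a, Pde3b, Pde4b, Pde6h, Akap12 and Akap7) and 1 higher, and medians were -0.55 for the members, -0.60 for cyclases, -0.28 for cAMP phosphodiesterases, -0.37 for PKA subunits, -0.54 for anchors, -0.90 for CREB factors, -0.65 for the other pathway genes and -0.52 for all genes, of which 40 were at least 2-fold higher and 1336 lower. With no filter on dim probes 3 members were at least 2-fold higher (Pde6b and Rapgef4 added, both not above background), and over all genes 602 were higher and 870 lower. Quantile normalization, cyclic loess, median scaling, the stricter filter, the mean over probes and keeping outlier flags left these counts within 1.5 times of the values given above. The split of measured members, 25 higher and 27 lower, was 20 and 32 with quantile normalization, 18 and 34 with cyclic loess, and 28 and 24 with the mean over probes.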
